A study of Homo sapiens with 15 samples.

Results

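The angiomotins, the Hippo effectors and a group of YAP targets were examined as 10 genes of the 19612 in the table. They are AMOT, AMOTL1, AMOTL2, LATS2, YAP1, WWTR1, TEAD1, CYR61, CTGF and ANKRD1. The group was chosen because AMOT is higher in H1975–OR than in H1975, so every value and count of the 10 genes in that contrast is given as a description, with no p-value, and supports nothing. All 10 passed the filter on low counts in both fits, and in the fit with H1975 AMOT passed through its H1975–OR libraries alone.

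The Hippo pathway is a kinase cascade in which MST kinases activate LATS kinases, and LATS kinases phosphorylate YAP and TAZ and keep them out of the nucleus. Unphosphorylated YAP and TAZ enter the nucleus, bind TEAD factors and switch on genes such as CTGF, CYR61 and ANKRD1. Angiomotins are junction proteins that bind YAP directly, hold it in the cytoplasm or at junctions, and also scaffold LATS kinases. Phosphorylation controls this pathway at the protein level, which RNA counts do not measure.

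H1975 is a human lung adenocarcinoma line carrying EGFR T790M and L858R. H1975–OR was made from it by prolonged culture in 500 nM osimertinib, an EGFR inhibitor, and was then kept in that drug. The sources used here do not say whether H1975–OR is 1 clone or a mixed population. The 15 libraries form 5 groups of 3, each with the letters a, b and c. Group 1 was H1975 given vehicle. The rest were H1975–OR, given vehicle in group 2, 1,25(OH)2D3 at 100 nM in group 3, osimertinib at 500 nM in group 4, and the pair of agents at those doses in group 5. All were kept in medium with charcoal-stripped serum during treatment, which ran for 96 h with repeat doses at 48 and 92 h. The vehicle-treated H1975–OR cells therefore spent that time without the drug in which the line was kept. 1,25(OH)2D3 is the active hormone form of vitamin D3. RNA came from separate passages of each line, so the p-values measure the spread between passages of one line.

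The libraries held between 4378033 and 6140025 counts in named genes. CYP24A1, a direct target of the vitamin D receptor, was used to check the labels. Levels are given in CPM (counts per 1000000 counts of the library, with the library totals scaled by TMM). CYP24A1 lay between 676 and 1468 CPM in the 6 libraries with 1,25(OH)2D3 and between 3.30 and 25.6 CPM in the other 9. The 6 epithelial markers summed to between 3180 and 5877 CPM, and the leukocyte markers to at most 39.4 CPM. The lung markers NAPSA and SFTPB averaged at most 1.45 CPM in the vehicle groups, and most of that list's sum was NKX2-1. Sample 3a stood apart from 3b and 3c. Its mitochondrial share was 1.54%, against 0.424% to 1.05% in the other libraries, and it lay above every vehicle-treated H1975–OR library for 6 of the 10 genes and below all of them for 2. It was left out of the primary tests, as in the study's own analysis. Beside the comparisons that involve 1,25(OH)2D3 alone, values with 3a kept in are given too. In bulk RNA, fewer cells with a transcript and less transcript per cell cannot be told apart.

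Promoter sequences of RefSeq (GRCh38.p14) were found for 8 of the 10 genes. CYR61 and TEAD1 had none in the table. The 250 bases before each start were searched on both strands for GGAATG, the core that TEAD factors bind, and 11.9% of 35116 promoters of that length hold it at least once. CTGF holds 3 copies and ANKRD1 holds 2, while 0.940% of all promoters hold 2 or more and 0.0826% hold 3 or more. The stretches of both genes that span the copies are shown because these genes had the largest fold changes between treatments of the 10, with the copies in capitals. CTGF lies on the minus strand at chr6:131951442-131951561, from 189 to 70 bases before the start, and ANKRD1 on the minus strand at chr10:90921190-90921327, from 240 to 103 bases before the start.
CTGF: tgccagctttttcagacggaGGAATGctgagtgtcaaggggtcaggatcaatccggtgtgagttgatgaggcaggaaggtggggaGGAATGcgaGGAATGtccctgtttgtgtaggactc
ANKRD1: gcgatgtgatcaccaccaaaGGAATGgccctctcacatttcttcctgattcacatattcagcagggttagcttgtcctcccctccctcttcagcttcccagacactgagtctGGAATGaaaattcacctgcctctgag

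YAP1 and 1 of the promoters of AMOTL2 hold 1 copy each. AMOT, AMOTL1, LATS2 and both WWTR1 promoters hold none, which says only that these letters are not in these windows. The sequence TGANTCA, which AP-1 binds, was found among the 10 genes' promoters at ANKRD1 alone, and 6.57% of all promoters hold it. These matches are descriptions of sequence and not of binding.

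AMOT, on the X chromosome (GENCODE, GRCh38, X:112774503-112840831, minus strand), encodes the founding angiomotin. It had 1, 2 and 2 counts in H1975 and 197, 184 and 161 counts in H1975–OR with vehicle. These are 0.173, 0.364 and 0.406 CPM against 40.3, 38.0 and 31.0 CPM. The groups did not overlap. The ratio was 118, with a 95% counting interval from 50.1 to 364 because of the 5 counts in H1975, and it covers counting error only. The ratio to the same H1975 libraries was 110 (46.8 to 342) with 1,25(OH)2D3, 132 (56.4 to 409) with osimertinib and 153 (65.4 to 474) with both agents. These 4 ratios share their denominator and were not tested against each other.

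AMOTL1 (11:94706431-94876748, plus strand), which also binds YAP and sits at junctions and actin, had 49.5, 14.02 and 49.0 CPM in H1975 and 37.8, 153 and 150 CPM in H1975–OR with vehicle. The groups overlapped because 2a fell between the H1975 libraries. The log2 difference was 1.62. It ranged from 1.20 to 2.02 over 13 alternatives, with 2.02 without 2a. AMOTL2 (3:134355347-134375479, minus strand), an angiomotin that YAP itself induces in many cells, averaged 119 ± 8.26 CPM in H1975 and 134 ± 14.1 CPM in H1975–OR (SD, n = 3 each). These groups overlapped.

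On a scale that allows genes to be compared, CPM per kilobase of summed exon length, the group means of the angiomotins differed in H1975–OR with vehicle. AMOT stood at 4.28 ± 0.567, AMOTL1 at 11.4 ± 6.57 and AMOTL2 at 20.7 ± 2.17 CPM per kilobase (SD, n = 3). In H1975 the same values were 0.0369 ± 0.0146, 3.74 ± 2.03 and 18.4 ± 1.27 CPM per kilobase. The mean of AMOT was the lowest of the 3 in H1975–OR with vehicle, but the libraries did not all share that order. In 2a AMOTL1 was at 3.77 and AMOT at 4.73 CPM per kilobase, and AMOTL1 was also below AMOT in 4a (3.94 against 4.42) and 5a (3.55 against 5.24).

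LATS2, a kinase that inactivates YAP and is a YAP target itself (13:20973036-21061586, minus strand), had 33.6, 33.0 and 32.5 CPM in H1975 and 45.8, 39.7 and 43.7 CPM in H1975–OR. The groups did not overlap, and the log2 difference was 0.40. YAP1, the transcriptional coactivator (11:102110447-102233424, plus strand), averaged 151 ± 12.7 and 193 ± 29.6 CPM, and the groups overlapped. WWTR1, which encodes the YAP relative TAZ (3:149517235-149736714, minus strand), averaged 131 ± 41.9 and 120 ± 28.3 CPM. TEAD1, the DNA-binding partner (11:12674421-12944737, plus strand), averaged 164 ± 18.8 and 159 ± 12.1 CPM (SD, n = 3 each). The libraries of both lines overlapped for WWTR1 and TEAD1.

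Among the targets, CTGF (now CCN2, 6:131948176-131951372, minus strand), a secreted matricellular protein, had 32.9, 49.2 and 32.5 CPM in H1975. It had 294, 216 and 279 CPM in H1975–OR with vehicle. The lowest H1975–OR library was above the highest H1975 library, and the log2 difference was 2.80. ANKRD1 (10:90912096-90921087, minus strand), a nuclear and sarcomeric ankyrin repeat protein, had 42.2, 63.4 and 38.0 CPM in H1975. It had 367, 345 and 424 CPM in H1975–OR, a log2 difference of 3.00. CYR61 (now CCN1, 1:85580761-85584589, plus strand), a relative of CTGF, had 52.8, 95.04 and 110 CPM against 160, 122 and 164 CPM. Its groups did not overlap either, by a smaller margin, and the log2 difference was 0.81. Per kilobase, ANKRD1 at 211 ± 22.9 and CTGF at 112 ± 17.6 were the highest of the 10 in H1975–OR with vehicle, followed by CYR61 at 40.3 ± 6.27 (SD, n = 3).

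AMOT, CTGF and ANKRD1, 3 of the 10 genes, were past the fit's threshold as higher and 0 as lower. Over all 12513 genes 9.89% were called higher and 10.3% lower. The libraries did not overlap for 5 of the 10, each higher in H1975–OR, against 39.2% of all genes in either direction. The median log2 difference of the 10 was 0.60, beside 0.01 for all genes. The genes were picked on this contrast, so these counts are no evidence about them.

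**Figure D1:**
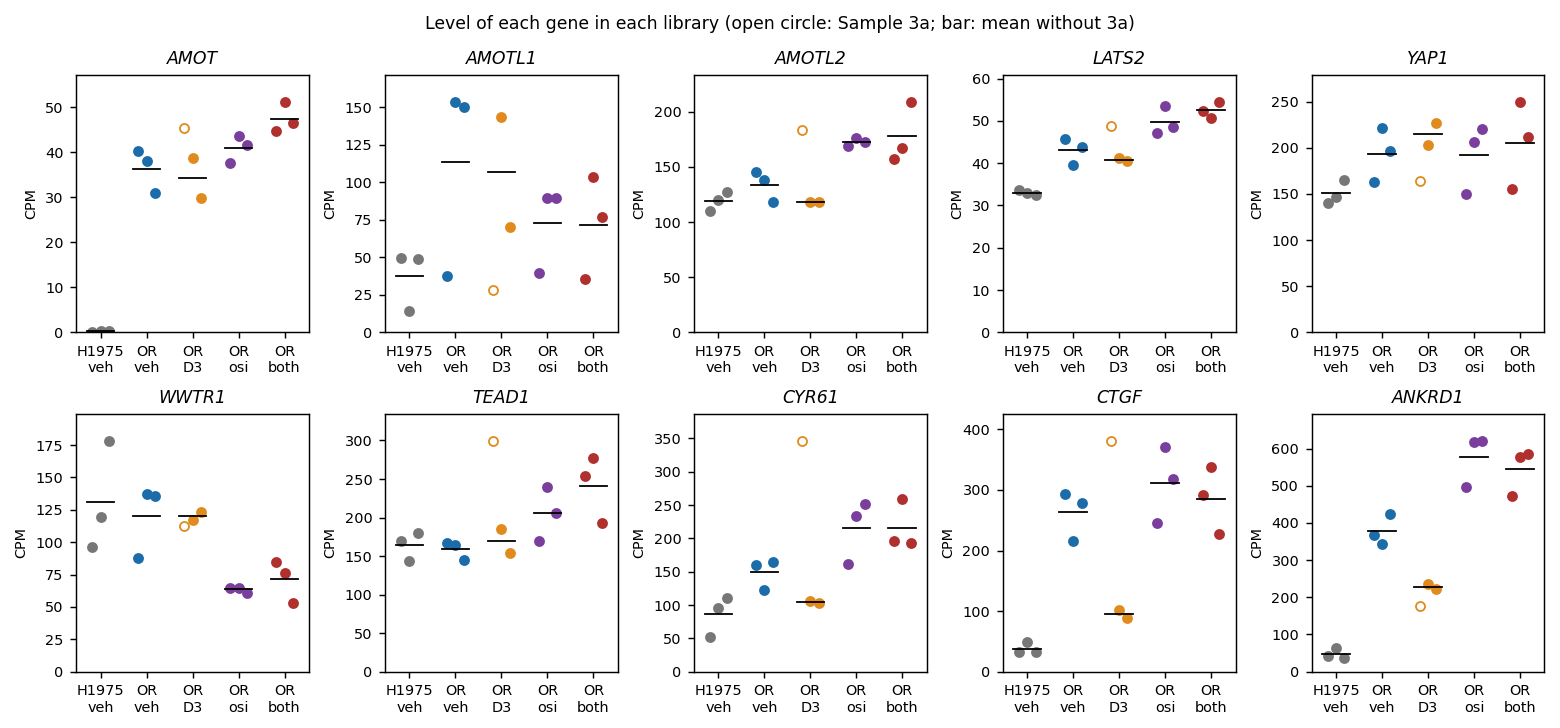
Each panel plots the level in CPM (linear axis from 0) of 1 gene in each of the 15 libraries, by group. H1975 and H1975–OR (OR) received vehicle (veh), 1,25(OH)2D3 (D3), osimertinib (osi) or both agents. Points are libraries, the open circle is Sample 3a and bars are means without it. AMOT lies at 0.173 to 0.406 CPM in H1975 and at 29.9 CPM or more in each H1975–OR library.

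The rest of the pathway, which the rule for the 10 genes did not use, was taken from 5 gene lists and tested with edgeR's quasi-likelihood test and Benjamini-Hochberg adjustment over all genes. These lists were chosen with earlier results of these data known, so they are not independent of this contrast. Of the 57 tested genes of the lists, 15 were called, or 26.3%, beside 20.1% of all genes in either direction. In the kinase core, 1 of 10 tested genes was called. MAP4K4, a kinase that can act on LATS beside MST, fell from 325 ± 27.7 to 202 ± 6.25 CPM (log2 fold change -0.67, SE 0.10, adjusted p = 0.00282). The genes for MST1 and MST2 (STK4 and STK3), SAV1, LATS1 and both MOB1 genes did not pass, with log2 fold changes from -0.19 to 0.34.

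Of 20 tested upstream regulators of 21, 5 rose and 1 fell, while 9.89% of all genes were called higher and 10.3% lower. FAT4, an atypical cadherin that feeds into Hippo signaling, rose from 47.8 ± 3.68 to 111 ± 19.8 CPM (log2 fold change 1.23, SE 0.17, adjusted p = 0.00212). AJUBA, a LIM protein that restrains LATS, rose from 155 ± 13.6 to 251 ± 14.3 CPM (adjusted p = 0.00292). The polarity scaffolds DLG1, MPP5 and PARD3 rose by log2 fold changes of 0.72, 0.57 and 0.42. CRB3, the Crumbs protein of epithelial apical membranes, fell from 9.76 ± 4.95 to 0.988 ± 0.676 CPM (log2 fold change -3.24, SE 0.65, adjusted p = 0.0104). Its counts in H1975–OR with vehicle were 2 to 9 per library. In the same libraries the epithelial cadherin CDH1 averaged 243 CPM in H1975 and 6.93 CPM in H1975–OR. The list of 6 epithelial markers that holds CDH1 fell by less. It summed to between 4560.5 and 5877 CPM in H1975 and between 3534 and 3897 CPM in H1975–OR with vehicle. The sums of 4 mesenchymal markers overlapped, at 3156 to 3545 CPM in H1975 and 2982 to 4269 CPM in H1975–OR with vehicle. Such sums lean on the most abundant genes and do not show whether a single marker changed. At the protein level the study reported more vimentin and less E-cadherin in H1975–OR than in H1975. The part of such epithelial genes in the CRB3 value was not tested.

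Among 7 genes that control angiomotin turnover, 2 rose and 0 fell, beside 9.89% higher and 10.3% lower over all genes. RNF146, a ubiquitin ligase that acts with tankyrases to degrade angiomotins, rose from 26.9 ± 2.53 to 42.9 ± 2.503 CPM (log2 fold change 0.69, SE 0.15, adjusted p = 0.0129). USP9X, a deubiquitinase known to act on angiomotins, rose from 506 ± 41.1 to 691 ± 64.2 CPM (adjusted p = 0.0238). These named members have opposite known effects on angiomotin protein. Of 7 TEAD and VGLL genes, 4 were tested and 1 fell, which was VGLL4, a competitor of YAP for TEAD, from 61.2 ± 9.39 to 36.2 ± 10.97 CPM (log2 fold change -0.74, SE 0.22, adjusted p = 0.0483).

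The other YAP targets did not follow CTGF and ANKRD1 as a group. Of 16 tested of 17, 3 rose and 2 fell, beside 9.89% higher and 10.3% lower over all genes. Their median log2 fold change was -0.22, beside 0.01 for all genes. ARHGEF17 rose from 28.0 ± 3.27 to 56.4 ± 3.79 CPM (log2 fold change 1.02, SE 0.20, adjusted p = 0.0088). RBMS3, an RNA-binding protein, and CRIM1, a membrane protein that binds BMPs, rose by log2 fold changes of 0.82 and 0.72. NT5E, the ecto-nucleotidase CD73, fell from 166 ± 15.7 to 29.8 ± 14.5 CPM (log2 fold change -2.45, SE 0.32, adjusted p = 0.00174). IGFBP3, a carrier of insulin-like growth factors, fell from 105 ± 20.3 to 45.2 ± 20.1 CPM (adjusted p = 0.0212). Of the 15 named genes in these lists, 7 kept their call under each of 13 alternatives and 8 lost it in at least 1, PARD3 in 10 and VGLL4 in 8. In the 5 comparisons among H1975–OR groups below, edgeR's test called 0 genes of these lists. At an unadjusted p under 0.05 it counted 10 of 57 tested with 1,25(OH)2D3 (17.5%, beside 7.27% of all genes), 6 of 56 with osimertinib (10.7%, beside 7.53%), 2 with both agents against osimertinib (3.57%, beside 4.16%), 9 with both against 1,25(OH)2D3 (16.1%, beside 11.6%) and 1 for the interaction of the agents (1.79%, beside 2.64%). DESeq2 called IGFBP3 with 1,25(OH)2D3 and with both agents against osimertinib, AJUBA and NT5E with both against 1,25(OH)2D3, and 0 in the others. By edgeR's log2 fold changes IGFBP3 was higher with 1,25(OH)2D3 (1.81) and with both agents against osimertinib (2.09). With both agents against 1,25(OH)2D3, AJUBA was higher (0.68) and NT5E lower (-1.69).

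**Figure D2:**
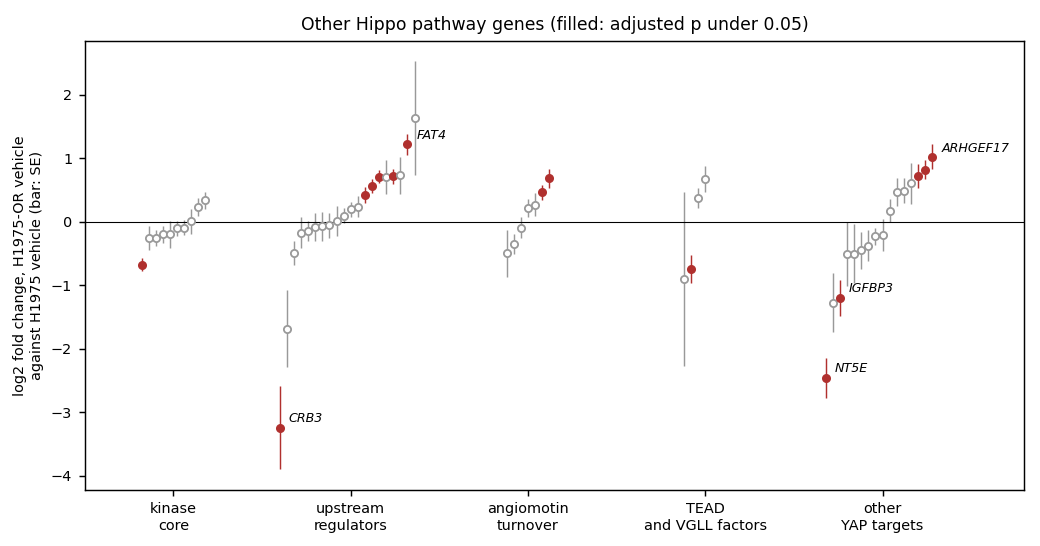
The vertical axis is the log2 fold change of H1975–OR with vehicle against H1975 with vehicle, with bars of 1 SE, for the tested genes of the 5 lists on the horizontal axis. Filled points passed the adjusted p threshold, and those beyond 1 in either direction are named. NT5E at -2.45 and CRB3 at -3.24 lie lowest, and ARHGEF17 at 1.02 and FAT4 at 1.23 are the called genes above 1.

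With 1,25(OH)2D3 alone, AMOT differed from vehicle by less than the spread between libraries, while CTGF and ANKRD1 were lower in 3b and 3c than in each vehicle library. Counts of AMOT were 181 in 3b and 161 in 3c, or 38.8 and 29.9 CPM, and the log2 fold change against vehicle was -0.08 (95% interval -0.62 to 0.45). CTGF had 101 and 88.5 CPM in 3b and 3c, below each vehicle library (216 to 294 CPM). Its log2 fold change was -1.47 (SE 0.22, 95% interval -1.96 to -0.97), with an adjusted p of 0.0576 by edgeR's quasi-likelihood test. ANKRD1 had 236 and 222 CPM, below each vehicle library (345 to 424 CPM), with a log2 fold change of -0.72 (SE 0.20, adjusted p = 0.457). CYR61 had 105 and 103 CPM against 122 to 164 CPM, with a log2 fold change of -0.51 (SE 0.28, adjusted p = 0.756).

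With 1,25(OH)2D3, 0 of the 10 genes were called in either direction. Over all genes 0.152% were called higher and 0% lower, although 454 were lower at an unadjusted p under 0.05 and DESeq2 called 45 lower. At an unadjusted p under 0.05 the test counted 2 of the 10, CTGF and ANKRD1, beside 7.27% of all genes. DESeq2 called CTGF, and 124 genes over the whole table. The libraries did not overlap for 4 of the 10 (CTGF, ANKRD1, CYR61 and AMOTL2), each lower, against 25.4% of all genes. With 3a kept in, ANKRD1 alone of the 10 did not overlap, against 13.3% of all genes. The median log2 fold change of the 10 was -0.09, beside -0.01 for all genes.

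Libraries of the same letter deviated together between the vehicle and 1,25(OH)2D3 groups. With the letter as a block in the 11 H1975–OR libraries other than 3a, a fit added after the data had been seen, both CTGF (log2 fold change -1.50, adjusted p = 0.0461) and ANKRD1 (-0.79, adjusted p = 0.0299) passed. In the planned fit with the block and 8 libraries, neither did (adjusted p = 0.225 for CTGF and 0.663 for ANKRD1). That fit put the block on H1975 too, whose same-letter correlations with H1975–OR under vehicle were -0.030 to 0.022. Without 3a, letter a had no 1,25(OH)2D3 library in either fit.

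Sample 3a split these targets. In it CTGF stood at 380 CPM and CYR61 at 345 CPM, above every vehicle library, whereas ANKRD1 stood at 176 CPM, below every vehicle library and below 3b and 3c. Against the vehicle library of its own letter, the log2 ratio of CTGF was 0.37 for letter a, -1.09 for b and -1.66 for c. For ANKRD1 the ratios were -1.06, -0.54 and -0.94, all of one sign. With 3a kept in, the log2 fold change of CTGF was -0.46 (adjusted p = 0.830) and that of ANKRD1 was -0.84 (adjusted p = 0.319), while CYR61 changed sign to 0.32. With 3a and the block over the 12 H1975–OR libraries, also added later, ANKRD1 passed (-0.85, adjusted p = 0.0122) and CTGF did not (-0.63, adjusted p = 0.599). CYP24A1 reached 1021 CPM in 3a, beside 868 in 3b and 1468 in 3c.

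Osimertinib returned to H1975–OR left AMOT at 37.6, 43.6 and 41.7 CPM, which overlapped the vehicle libraries (log2 fold change 0.17, 95% interval -0.18 to 0.52). WWTR1 had 65.0, 65.0 and 60.7 CPM with osimertinib and 87.7, 138 and 136 CPM with vehicle, so the groups did not overlap. Its log2 fold change was -0.92 (SE 0.21, adjusted p = 0.252). ANKRD1 had 496, 618 and 619 CPM, above each vehicle library, with a log2 fold change of 0.61 (SE 0.13, adjusted p = 0.219). CYR61 (161, 234 and 252 CPM) overlapped the vehicle libraries through 4a, with a log2 fold change of 0.54 (SE 0.19, adjusted p = 0.522). CTGF (245, 370 and 318 CPM) overlapped as well, with a log2 fold change of 0.25 (SE 0.19, adjusted p = 0.867). AMOTL2 had 169, 176 and 173 CPM against 118 to 145 CPM, with a log2 fold change of 0.37 (SE 0.13, adjusted p = 0.514).

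Under osimertinib 0 of the 10 were called in either direction, while 0.032% of all genes were called higher and 0.016% lower. The count at an unadjusted p under 0.05 was 5 of 10, beside 7.53% of all genes. DESeq2 called ANKRD1 and WWTR1, and 117 genes over the whole table. The libraries did not overlap for 5 of the 10, with AMOTL2, LATS2, TEAD1 and ANKRD1 higher and WWTR1 lower, against 12.8% of all genes. The median log2 fold change was 0.23, beside 0.01 for all genes. With the letter as a block, 35 genes in place of 6 were called over the whole table, and still 0 of the 10 (ANKRD1 adjusted p = 0.0527, WWTR1 adjusted p = 0.123). Within letters, WWTR1 was lower in 3 of 3 pairs, by log2 ratios of -0.43, -1.08 and -1.16, and ANKRD1 was higher in 3 of 3, by 0.43, 0.84 and 0.55.

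**Figure D3:**
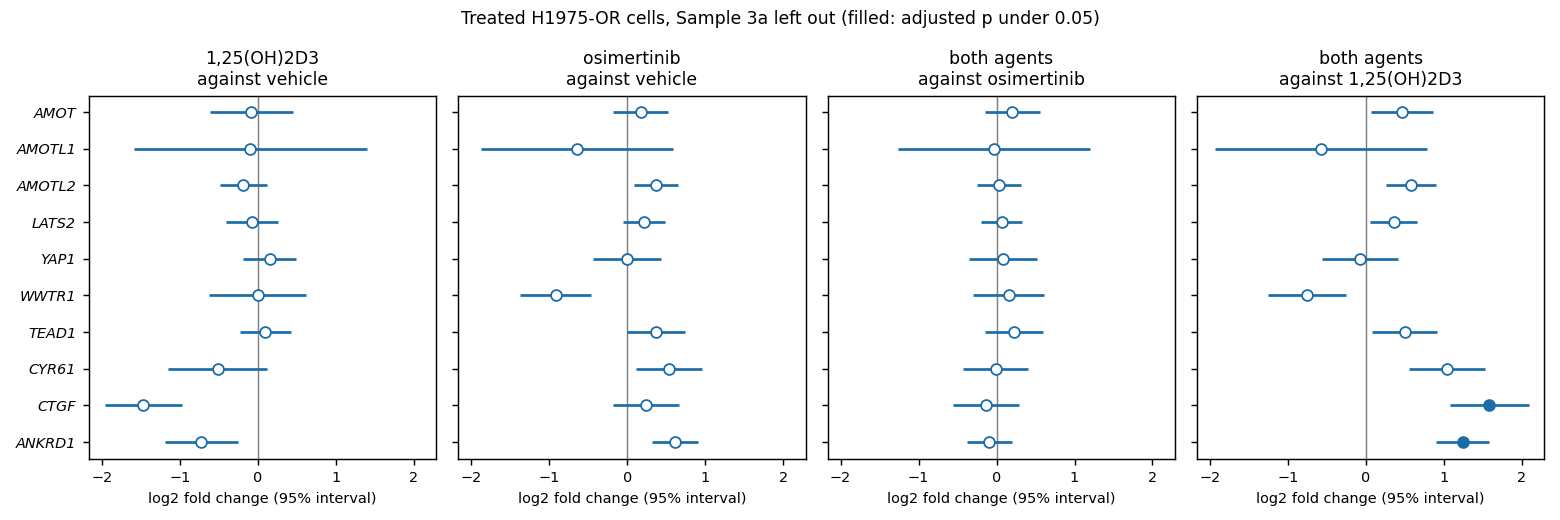
Points are log2 fold changes of the 10 genes (vertical axis) in 4 comparisons of H1975–OR groups, lines are 95% intervals and filled points passed the adjusted p threshold. With both agents against 1,25(OH)2D3, CTGF at 1.58 and ANKRD1 at 1.24 are filled, and with 1,25(OH)2D3 against vehicle CTGF lies at -1.47.

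When 1,25(OH)2D3 was given on top of osimertinib, the targets stayed near their levels with osimertinib alone. CTGF had 291, 338 and 228 CPM with both agents (log2 fold change -0.13, 95% interval -0.56 to 0.29). ANKRD1 had 474, 578 and 584 CPM (log2 fold change -0.09, 95% interval -0.38 to 0.20). AMOT had 44.7, 51.2 and 46.6 CPM, above each osimertinib library, with a log2 fold change of 0.20 (SE 0.16, adjusted p = 1). By edgeR's test 0 of the 10 were called, and 0 had an unadjusted p under 0.05, beside 4.16% of all genes. DESeq2 also called 0 of the 10, and 66 genes over the whole table. Over all genes 0.056% were called higher and 0.04% lower. AMOT was the single gene of the 10 whose libraries did not overlap, against 7.93% of all genes. The median log2 fold change was 0.05, beside 0.00 for all genes. The letter block raised the calls over all genes from 12 to 33 and left the 10 at 0.

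With both agents against 1,25(OH)2D3 alone, CTGF and ANKRD1 rose. CTGF was at 286 ± 55.3 CPM with both agents (SD, n = 3) and at 101 and 88.5 CPM with 1,25(OH)2D3 (log2 fold change 1.58, SE 0.23, adjusted p = 0.0368). ANKRD1 was at 545 ± 62.1 CPM and at 236 and 222 CPM (log2 fold change 1.24, SE 0.15, adjusted p = 0.0277). CYR61, at 196, 259 and 192 CPM, was above both 1,25(OH)2D3 libraries and did not pass (log2 fold change 1.04, SE 0.22, adjusted p = 0.0979). AMOTL2 (0.58, adjusted p = 0.155), TEAD1 (0.50, adjusted p = 0.342), AMOT (0.46, adjusted p = 0.353) and LATS2 (0.36, adjusted p = 0.343) were also higher in each library without passing. WWTR1 was lower in each library, at 84.9, 76.3 and 52.8 CPM against 117 and 123 CPM (log2 fold change -0.76, SE 0.23, adjusted p = 0.219).

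That makes 2 of 10 genes called higher and 0 lower, with 0.12% of all genes called higher and 0.136% lower. At an unadjusted p under 0.05, with 3a left out, the test counted 8 of the 10, beside 11.6% of all genes. The libraries did not overlap for 8 of the 10, with 7 higher and 1 lower, against 29.7% of all genes. With 3a kept in the count was 3, with LATS2 and ANKRD1 higher and WWTR1 lower, against 12.7% of all genes. The median log2 fold change was 0.48, beside 0.02 for all genes. Both calls were lost when certain single libraries were left out. With 5b or 5c left out, 0 of the 10 were called, and without 5a ANKRD1 alone was. Leaving out 3b or 3c left 1 library in the 1,25(OH)2D3 group. Over 13 alternatives the log2 fold change ranged from 1.19 to 1.36 for ANKRD1 and from 0.58 to 1.72 for CTGF. Within letters a (with 3a), b and c the log2 ratios were 1.43, 1.29 and 1.40 for ANKRD1. For CTGF they were -0.38, 1.74 and 1.36. With 3a kept in, the log2 fold change of CTGF dropped to 0.58 (adjusted p = 0.782) and ANKRD1 stayed called (1.36, adjusted p = 0.00689). In that fit CYR61 was at 0.22 (adjusted p = 0.934), AMOTL2 at 0.34 (adjusted p = 0.648), TEAD1 at 0.17 (adjusted p = 0.900), AMOT at 0.31 (adjusted p = 0.665), LATS2 at 0.26 (adjusted p = 0.630) and WWTR1 at -0.73 (adjusted p = 0.289).

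The comparison of both agents with 1,25(OH)2D3 and that of 1,25(OH)2D3 with vehicle share 3b and 3c, so low values there move both. Whether the response to 1,25(OH)2D3 differed when osimertinib was present was tested directly, as an interaction. For CTGF it was 1.34 on the log2 scale (SE 0.29, 95% interval 0.69 to 1.98, adjusted p = 0.916), for ANKRD1 0.63 (SE 0.20, adjusted p = 1) and for CYR61 0.50 (SE 0.29, adjusted p = 1). Neither the 10 genes nor the whole table held a call (0%), with 330 of all genes at an unadjusted p under 0.05 and 11 called by DESeq2. Of the 10, 2 had an unadjusted p under 0.05, and DESeq2 called CTGF (adjusted p = 0.0181). With 3a kept in, the difference for CTGF was 0.34 (adjusted p = 1) and CYR61 changed sign to -0.32. By the primary test, a dependence of the CTGF response on osimertinib was not shown.

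In H1975–OR the levels of AMOTL1 and YAP1 differed by replicate letter. In the 4 H1975–OR libraries lettered a, AMOTL1 lay between 28.4 and 39.5 CPM, and in the 8 lettered b or c between 70.0 and 153 CPM. YAP1 lay between 150 and 164 CPM in the a libraries and between 196 and 250 CPM in the others. These 2 of the 10 genes had each a library below all b and c libraries, and 0 had them above, while 4.41% of 12503 genes were lower in this way and 4.33% higher. No test was run, and the sources name separate passages but do not say whether a letter marks a passage. In H1975 the low AMOTL1 library was 1b.

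**Figure D4:**
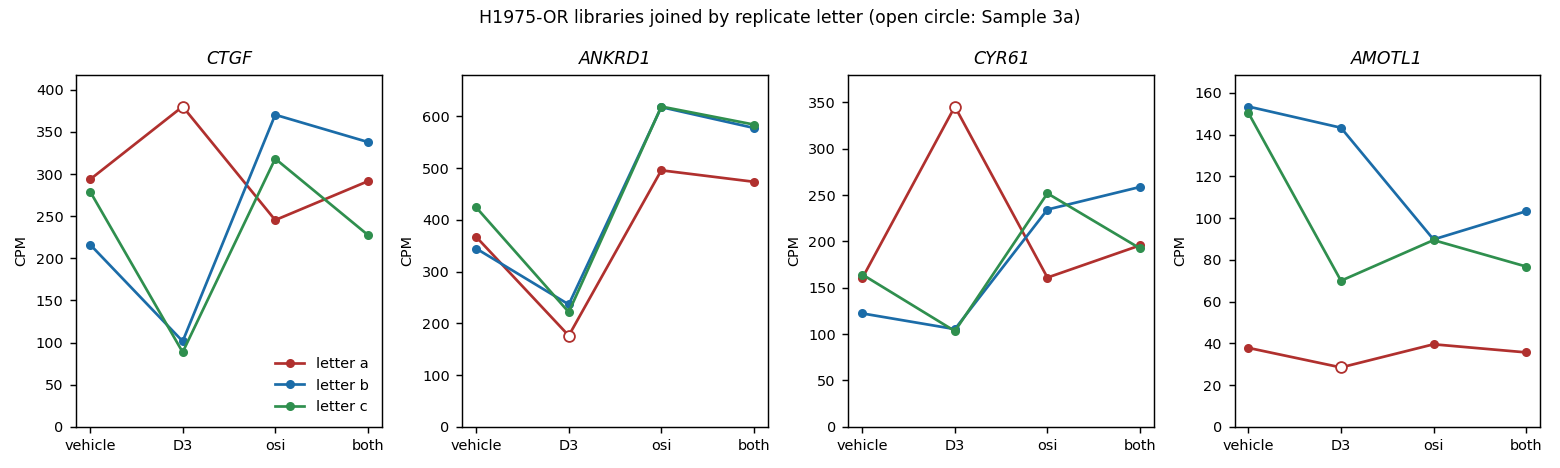
The level in CPM (linear axis from 0) of CTGF, ANKRD1, CYR61 and AMOTL1 is plotted for the 4 treatments of H1975–OR, with libraries of the same letter joined and Sample 3a as an open circle. ANKRD1 is lower with 1,25(OH)2D3 than with vehicle along each letter, CTGF along b and c only, and AMOTL1 stays at 39.5 CPM or less along letter a.

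Across the 14 libraries other than 3a, the genes whose log2(CPM + 2) followed AMOT most closely among 9424 with a mean of at least 50 counts were RMND5A (r = 0.99), SDC2 (0.99), FNBP1 (0.98), SLC26A2 (0.98) and TRAM2 (0.98). All 5 were low in H1975 and higher in the H1975–OR groups, SDC2, a heparan sulfate proteoglycan, from 11.1 ± 4.31 to 139 ± 29.2 CPM with vehicle and SLC26A2, a sulfate transporter, from 86.6 ± 19.3 to 530 ± 85.4 CPM. For CTGF the closest gene was ANKRD1 (r = 0.97), followed by CTIF (0.95), RHOBTB1 (0.95), RIMKLB (0.95) and PHF6 (0.94). These correlations describe libraries that fall into H1975 and H1975–OR, so the step between the lines sets most of them. Within the 11 H1975–OR libraries 0 of the 5 closest genes stayed in either list. There CTGF and ANKRD1 correlated with r = 0.88, ANKRD1 and CYR61 with r = 0.94, and AMOT and CTGF with r = 0.56. WWTR1 had r = -0.73 with CYR61, -0.52 with CTGF and -0.78 with ANKRD1. YAP1 had r = 0.07, -0.18 and -0.03 with the same genes. The 11 libraries span 4 treatments, so differences between treatments enter each r. These values leave out 3a, in which CTGF and CYR61 lay above every vehicle library and ANKRD1 below every one.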

How the data were processed

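The authors prepared stranded total RNA libraries, used Kallisto with hg38 transcripts for the read pairs, and tximport for the sums over each gene. The deposited values are these estimated counts per gene, scaled neither for depth nor for length. The submitters' processing notes name CASAVA 1.8.2, kallisto 0.43.0 and STAR 2.5.2b. The transcript annotation, the strand setting and the role of STAR are not given in the sources used here. LATS2, WWTR1, CTGF, AMOTL1, YAP1 and TEAD1 overlap antisense RNAs in GENCODE release 44, whose reads could not be told apart if strand was not used. Columns without a sample numbered 0.

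Estimated counts were rounded and tested with edgeR 4.0.16 (R 4.3.3) after filterByExpr (minimum count 10, minimum total 15) and TMM scaling, with the quasi-likelihood test and Benjamini-Hochberg adjustment at 0.05. H1975–OR against H1975 and 1,25(OH)2D3 against vehicle came from 1 fit of 8 libraries and 12513 genes, the others from 1 fit of 11 libraries and 12503 genes. Sample 3a was in neither. CPM used TMM over the 15 libraries. Named genes are the 10 chosen ones, the list genes with an adjusted p under 0.05 (up to 5 per direction), the 5 genes most correlated with AMOT and with CTGF, and CYP24A1. The epithelial and lung markers of the label check, and the kinase core genes that did not pass, are named outside that rule. The members and lists were chosen with earlier results of these data known. The letters paired the groups with vehicle, osimertinib and both agents, and vehicle with 1,25(OH)2D3 (same-letter correlations of deviations from group means 0.118 to 0.464), by the rule that each pair exceed 0.1. They did not pair H1975 with H1975–OR, nor 1,25(OH)2D3 with either group that had osimertinib. In the latter, letter b alone fell short (3b with 4b -0.014, 3b with 5b 0.026). Letters a and c lay between 0.178 and 0.304 there. The 1,25(OH)2D3 mean in these correlations included 3a. DESeq2 1.42.0 and other alternatives are below. The test was tried on simulated data.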

Additional observations from a re-analysis of the deposited data

Results flagged for a closer look

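Sample 3a, which the primary tests left out, lay above every vehicle-treated H1975–OR library for 6 of the 10 genes. Its levels were 380 CPM for CTGF (vehicle 216 to 294), 345 CPM for CYR61 (122 to 164), 299 CPM for TEAD1 (145 to 167) and 184 CPM for AMOTL2 (118 to 145). LATS2 at 48.8 CPM (39.7 to 45.8) and AMOT at 45.4 CPM (31.0 to 40.3) exceeded the vehicle range by less. Its mitochondrial share of 1.54% was the highest of the 15 libraries, and the part of that in these levels was not tested.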

How the results depend on the processing

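RLE size factors changed no call of the 10 genes. Of 850 values of the 10 genes under alternatives, 65 had the opposite sign, and 0 of these were called or were called in the primary fit. As a description of genes picked on that contrast, 3 of the 10 were past the threshold in H1975–OR against H1975, 4 with DESeq2 or without the filter, 5 with all 14 libraries in one fit, 3 to 5 with 1 library left out (5 without 2a). With 3a kept in (added after the data had been seen), the genes of the 10 whose libraries did not overlap numbered 1 in place of 4 for 1,25(OH)2D3 against vehicle, and 3 in place of 8 for both agents against 1,25(OH)2D3. Over all genes 2521 were called, 1636 with 3a kept in, and 1426 to 2835 with 1 library left out. For 1,25(OH)2D3 against vehicle, 0 of the 10 were called, but 1 with DESeq2, without the filter, with 14 libraries, and with 3a and the replicate block over 12 libraries (added later), and 2 with the block over 11 (added later). All-gene calls there were 19, against 124 with DESeq2, 32 without the filter, 29 with 14 libraries, 9 with the block or with the 2 groups alone, 48 with the block over 11 libraries, 12 in 11 libraries without it, 47 with 3a and the block, and 5 to 18 with 1 library left out. AMOT turned to 0.0696 with 3a and 0.0598 with 3a and the block, and ranged from -0.28 to 0.10 with 1 library left out. CYR61 turned to 0.32 and 0.22 with 3a, without and with the block.

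For osimertinib against vehicle, 0 of the 10 were called and 2 with DESeq2. All-gene calls were 6, against 117 with DESeq2, 35 with the block, 12 with 14 libraries, 2 with the 2 groups alone, and 1 to 29 with 1 library left out. For both agents against osimertinib all-gene calls were 12, against 66 with DESeq2, 5 with 3a, 33 with the block, 2 with the 2 groups alone, and 3 to 9 with 1 library left out. There CTGF ranged from -0.28 to 0.0099 and ANKRD1 from -0.19 to 0.00019. For both agents against 1,25(OH)2D3, 2 of the 10 were called, against 4 with DESeq2, 1 with 3a, with or without the block, 0 with the 2 groups alone, and 0 to 1 with 1 library left out. All-gene calls were 32, against 329 with DESeq2, 12 with 3a, 183 with the block, 71 with 14 libraries, 9 with the 2 groups alone, and 0 to 11 with 1 library left out. The letters did not pair these groups by the rule used, since the lowest same-letter correlation was 0.026, for letter b. It was 0.304 for a and 0.265 for c. The block left the members called at 2. For the interaction of the agents, DESeq2 called 1 of the 10 and 11 genes in all, and 0 to 1 genes were called with 1 library left out. CYR61 there turned to -0.32 with 3a and -0.25 with 3a and the block. The block changed no other call of the 10. The causes were not tested. With the longest transcript as length, 5 of the 10 levels in H1975–OR with vehicle moved by their SD or more. In CPM per kilobase, AMOTL2 moved from 20.7 to 27.5, CYR61 from 40.3 to 48.4 and WWTR1 from 14.4 to 23.9. YAP1 moved from 30.7 to 35.8 and TEAD1 from 14.9 to 16.9. The order of the angiomotin means stayed. AMOT had 5 counts in H1975, which limits its ratio.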
